A study of Mus musculus with 4 samples.

Results

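The genes described here are long non-coding transcripts that carry microRNA hairpins outside the large miR-290, miR-17, miR-106a and Dlk1-Dio3 clusters. They were chosen as 10 listed symbols, and 7 of these matched a row among the 43629 gene identifiers of the count files: Mir22hg, C130071C03Rik, Mir99ahg, Mir124a-1hg, Dleu2, Ftx and A330023F24Rik. Mir100hg, 2610203C20Rik and Mirlet7bhg matched no row by symbol. In RefSeq the first 2 of these are names of a single gene on chromosome 9, and Mirlet7bhg is a synonym of Lncppara on chromosome 15. The host transcripts of both loci were therefore not analysed here, but the microRNA genes inside them have rows of their own and are included.

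A microRNA begins as a hairpin within a longer primary transcript made by RNA polymerase II. In the nucleus the Microprocessor, formed by the nuclease DROSHA and its RNA-binding partner DGCR8, cuts the hairpin out, and the rest of the transcript is degraded or, where the hairpin lies in an intron, spliced. Host transcripts of this kind are thus both genes and substrates of DROSHA, and many of the microRNAs they carry are better known from differentiated cells than from embryonic stem cells: miR-9 and miR-124 from neural cells, let-7 from differentiating cells at large, and miR-22 and miR-29 from muscle and connective tissue.

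Poly(A) RNA was sequenced in 4 libraries of mouse embryonic stem cells, which are of 129/Ola background and were kept in serum with LIF. Knockout library 1 (KO1) carries a Drosha allele lacking the proline-rich region and knockout library 2 (KO2) one without the arginine- and serine-rich region. Both were made with paired CRISPR/Cas9 cuts and are labelled passage 7. The wild-type libraries come from the E14 line at passage 33 (WT1) and passage 42 (WT2), and are marked in their titles as re-used, so genotype cannot be told apart from passage or from the origin of the libraries. No label says whether a library stands for one clone or for a separate culture, and the p-values therefore reflect a spread that may be technical. In the wild types that spread also takes in passage 33 against passage 42, and in the knockouts the difference in allele.

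Libraries held 29264632 to 42322129 counts, and values are given in CPM, counts scaled by library size after TMM normalization. Drosha was at 158 CPM in both knockout libraries, against 364 and 357 CPM in WT1 and WT2. It was thus lower in the libraries labelled knockout, but a gene-level count does not check the deleted regions. The knockout libraries were far more alike than the wild types: among genes that reached 50 counts in a pair, the chi-square per degree of freedom was 2.26 for KO1 against KO2 and 167 for WT1 against WT2. They still differed by more than sampling noise and were counted as 2 samples. Pluripotency markers were expressed throughout (10 genes, none at 0, summing to 7152 to 7258 CPM in the knockouts and 6687 to 8154 CPM in the wild types). None of the 10 passed the edgeR test used below, with 4 at an unadjusted p under 0.05 and 1 called by DESeq2. In bulk RNA, fewer cells of a type and less RNA per cell cannot be told apart.

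The hairpins that DROSHA cuts are shown first for the loci on which the results turn, in RNA letters 5′ to 3′ from RefSeq (build GRCm38.p6), with the annotated mature arms in capitals. Of the 19 microRNA genes inside the loci, 15 had a hairpin in that table. The hairpins of the host raised with the most counts (Mir22), of the host with the largest fitted change (Mir9-2) and of A330023F24Rik (Mir29b-2 and Mir29c) lie at chr11:75463716-75463810, chr13:83738814-83738885, chr1:195037040-195037120 and chr1:195037547-195037634, all on the plus strand:
Mir22: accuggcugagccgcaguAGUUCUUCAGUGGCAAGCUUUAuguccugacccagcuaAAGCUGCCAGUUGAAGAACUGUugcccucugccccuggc
Mir9-2: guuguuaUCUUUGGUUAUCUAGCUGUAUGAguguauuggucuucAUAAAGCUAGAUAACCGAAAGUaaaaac
Mir29b-2: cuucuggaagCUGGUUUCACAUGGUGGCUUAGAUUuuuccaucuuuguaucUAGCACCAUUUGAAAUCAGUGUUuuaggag
Mir29c: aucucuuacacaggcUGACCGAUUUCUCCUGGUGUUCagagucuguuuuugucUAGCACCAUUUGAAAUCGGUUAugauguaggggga

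Hairpins whose rows had counts of their own in these libraries, described further on, are shown next. Mirlet7b lies at chr15:85707319-85707403 and Mirlet7c-2 at chr15:85706603-85706697 (plus strand), Mir16-1 at chr14:61631880-61631972, Mir421 at chrX:103572921-103572996 and Mir374b at chrX:103573060-103573154 (minus strand):
Mirlet7b: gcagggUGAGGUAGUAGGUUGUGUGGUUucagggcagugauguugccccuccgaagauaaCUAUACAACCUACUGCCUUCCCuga
Mirlet7c-2: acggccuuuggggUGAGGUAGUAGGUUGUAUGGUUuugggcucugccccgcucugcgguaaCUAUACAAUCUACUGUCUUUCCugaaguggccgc
Mir16-1: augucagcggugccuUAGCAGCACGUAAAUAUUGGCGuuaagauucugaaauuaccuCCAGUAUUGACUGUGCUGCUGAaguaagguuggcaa
Mir421: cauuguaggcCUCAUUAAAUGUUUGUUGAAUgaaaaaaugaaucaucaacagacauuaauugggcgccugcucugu
Mir374b: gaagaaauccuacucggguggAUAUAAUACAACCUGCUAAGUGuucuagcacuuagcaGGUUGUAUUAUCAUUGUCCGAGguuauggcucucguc

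Target choice by a mature microRNA rests mainly on its seed, bases 2 to 8, shown in capitals for a selection of arms of these loci. Those of let-7b and let-7c, which come from 3 of these microRNA genes, are the same, as are those of the miR-29 pair and those of miR-99a and miR-100, which come from separate hosts on chromosomes 16 and 9:
miR-22-3p: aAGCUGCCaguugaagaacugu
miR-9-5p: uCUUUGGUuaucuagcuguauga
miR-16-5p: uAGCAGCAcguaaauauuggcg
let-7b-5p: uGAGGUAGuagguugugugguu
let-7c-5p: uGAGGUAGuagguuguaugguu
miR-29b-3p: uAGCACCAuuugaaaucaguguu
miR-29c-3p: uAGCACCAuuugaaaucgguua
miR-99a-5p: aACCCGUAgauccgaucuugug
miR-100-5p: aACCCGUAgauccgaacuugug

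The hosts differ in where the hairpin sits. In the GENCODE M21 annotation Mir22, Mir9-2, Mir124a-1, Mir3078, Mir29b-2 and Mir29c overlap an exon of at least 1 transcript of their host. Cutting by DROSHA would sever those transcripts. Mir22 overlaps an exon in both annotated transcripts of Mir22hg. Mir9-2 does so in 2 of 5 of C130071C03Rik and lies in an intron of 1. In Mir124a-1hg, Mir124a-1 overlaps an exon in 2 of 4 transcripts and Mir3078 in 1 of 4. Mir29b-2 and Mir29c each overlap an exon in 1 of 4 transcripts of A330023F24Rik. Mir99a, Mirlet7c-1, Mir125b-2, Mir15a, Mir421 and Mir374b lie only in introns, and Mir16-1 overlaps an exon of 1 of the 15 transcripts of Dleu2 and lies in an intron of 8.

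**Figure D1:**
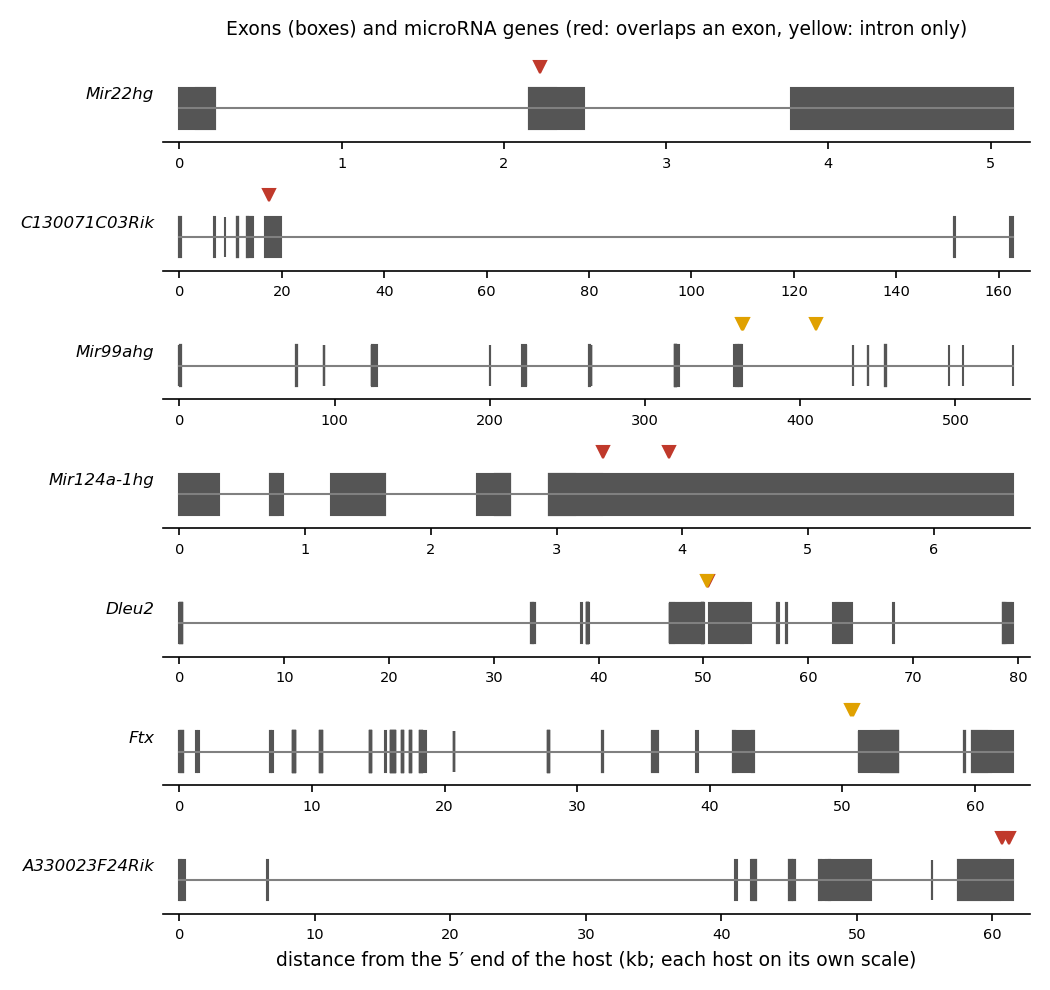
Exons of all annotated transcripts (boxes) and microRNA genes (triangles; red where they overlap an exon, yellow where they lie in introns only) of the 7 hosts with a row, by distance from the host's 5′ end in kb, each host on its own scale; triangles of neighbouring microRNA genes overlap at Dleu2, Ftx and Mir99ahg. The hairpin of Mir22hg lies 2177 bases from the start of a span of 5138 bases, while that of C130071C03Rik lies 17433 bases into a span of 162814 bases.

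Knockout was compared with wild type for each host in an edgeR quasi-likelihood fit of all genes with Benjamini-Hochberg adjustment. Of the 7 hosts with a row, 6 passed the filter on low counts. Mir22hg and C130071C03Rik rose, 0 fell and 4 did not pass at an adjusted p under 0.05, against 5.45% of all 17022 genes tested called in either direction. By direction, edgeR called 3.51% of all genes higher and 1.94% lower. At an unadjusted p under 0.05 there were 3 hosts higher and 0 lower, beside 6320 of all 17022 genes in either direction. DESeq2 called 3 hosts higher and 0 lower, beside 2051 higher and 1706 lower of the 16520 genes it tested. The same counts over all genes are the background for the lists that follow. The median log2 fold change was 1.11 over the 6 hosts and -0.02 over all genes tested. C130071C03Rik and A330023F24Rik, which had the largest fitted changes, passed the filter on low counts because of their knockout counts. Their wild-type counts alone (5 and 2, and 5 and 14) would not have passed. The median and the call of C130071C03Rik thus depend on entry through the group in which these hosts were high. In 4 of the 6 hosts both knockout libraries lay above both wild types, which held for 36.5% of all genes. The smallest adjusted p over all genes was 0.0482, which leaves little margin to the threshold for any call. Both calls were lost with upper-quartile scaling (edgeR adjusted p = 0.0520 for each), with library totals alone (0.0542), after correction for GC and length trends (0.0920) and with the knockout libraries summed as 1 sample (0.363 for Mir22hg and 0.249 for C130071C03Rik), while the fitted changes stayed above 0.

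Mir22hg (ENSMUSG00000085148, mm10 chromosome 11, 75461539 to 75466676, plus strand) is the host of miR-22, a microRNA studied in heart, muscle and blood. Its knockout levels were 11.6 and 12.8 CPM, with 3.73 and 4.69 CPM in WT1 and WT2, from 357, 568, 149 and 169 counts. Both knockout libraries were thus well above both wild types, and the libraries of each genotype were close. The means were 12.2 ± 0.870 and 4.21 ± 0.680 CPM (SD, n = 2 each). The fitted log2 fold change was 1.53 ± 0.22 (SE; edgeR adjusted p = 0.0482). With either knockout library left out the call was lost (edgeR adjusted p = 0.385 without KO1 and 0.370 without KO2), although the fitted change stayed at 1.61 and 1.47.

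The protein-coding gene Tlcd2 overlaps Mir22hg on the same strand, and reads in the part they share cannot be told apart by strand. Tlcd2 had 2.95, 3.74, 2.35 and 4.28 CPM in KO1, KO2, WT1 and WT2, and its groups overlapped (log2 fold change 0.02 ± 0.39, edgeR adjusted p = 0.979). The next tested genes beyond the host did not pass in edgeR. Wdr81, 6822 bases away, was at 1.39 ± 0.30 (edgeR adjusted p = 0.0627). It was called by DESeq2 (adjusted p = 0.0013), and by edgeR without the filter on low counts (adjusted p = 0.0305) and with the replicate block (0.0336). After correction for the GC and length trends of each library it was at 0.38. On the other side Prpf8, a core splicing factor gene, was at -0.70 ± 0.24 (edgeR adjusted p = 0.117). Mir22hg itself was at 1.89 after that correction (edgeR adjusted p = 0.0920).

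C130071C03Rik (ENSMUSG00000050334, mm10 chromosome 13, 83721381 to 83884194, plus strand) carries Mir9-2, 1 of the genes of the neural microRNA miR-9. It had 35 and 56 counts in KO1 and KO2, or 1.13 and 1.26 CPM. The wild types had 5 and 2 counts, or 0.125 and 0.0555 CPM. The transcript was thus near the limit of detection in wild-type cells and just above 1 CPM in both knockout libraries. The log2 fold change was 3.66 ± 0.49 (edgeR adjusted p = 0.0482). Pooled over libraries the ratio was 13.1, with an exact 95% interval from 6.12 to 33.6 that covers counting error only. The call was lost without KO1 (edgeR adjusted p = 0.272) and without KO2 (0.238). The nearest tested genes, Tmem161b (338102 bases away) and Cetn3, were at -0.75 ± 0.25 and -0.56 ± 0.23, short of the threshold (edgeR adjusted p = 0.117 and 0.159), and at -0.09 and 0.09 after the GC and length correction.

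Some neural markers moved with C130071C03Rik. Of 10 listed, 6 were tested, Pax6 and Tubb3 rose and 0 fell, with a median of 1.01 on the log2 scale. At an unadjusted p under 0.05, 5 were higher, and DESeq2 called 3. After the GC and length correction Tubb3 was at 0.15 (edgeR adjusted p = 0.718) against 1.13 before it, and Pax6 at 2.63. The 10 together made up 114 and 115 CPM in KO1 and KO2 and 60.2 and 68.9 CPM in WT1 and WT2. Most of the difference in this sum was Tubb3, at 73.2 and 71.3 CPM in KO1 and KO2 and 30.5 and 35.5 CPM in WT1 and WT2. Pax6, a transcription factor of the eye and neural tube, had 1.59 and 1.94 CPM against 0.326 and 0.305 CPM. Dcx, a marker of migrating neurons, had no count in any library, and Neurog2 had 1 count in KO1 alone. Their part in the rise of the host was not tested.

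A330023F24Rik (ENSMUSG00000096929, mm10 chromosome 1, 194976375 to 195037904, plus strand) carries Mir29b-2 and Mir29c near its 3′ end, 60665 and 61172 bases from its start. The miR-29 family is known for repressing collagen and other matrix genes and the de novo DNA methyltransferases. Knockout levels were 1.39 CPM (KO1) and 1.53 CPM (KO2), and wild-type levels 0.125 and 0.389 CPM, from 43, 68, 5 and 14 counts. Both knockout libraries lay above both wild types, which differed between themselves by a log2 ratio of 1.31 for WT2 over WT1. The log2 fold change was 2.51 ± 0.59 and did not pass (edgeR adjusted p = 0.0688), although DESeq2 (adjusted p = 0.0140) and a fit without the filter on low counts (edgeR adjusted p = 0.0370) called it. Pooled over libraries the ratio was 5.90, with an exact 95% interval from 3.60 to 10.2 for counting error. Its neighbours Cd34 (-0.90 ± 0.25) and Cr1l (-0.67 ± 0.15) had fitted changes below 0 that missed the threshold (edgeR adjusted p = 0.0863 and 0.0632). DESeq2 called Cr1l lower (adjusted p = 0.0386), but after the GC and length correction Cr1l was at 0.04 and Cd34 at -0.41.

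Dleu2 (ENSMUSG00000097589, mm10 chromosome 14, 61602839 to 61682373, minus strand) carries miR-15a and miR-16, which restrain cell division and survival genes, and its human counterpart lies in a region often deleted in chronic lymphocytic leukaemia. Levels were 20.2 and 22.1 CPM in KO1 and KO2, and 10.3 and 15.9 CPM in WT1 and WT2. The groups did not overlap, but WT2 lay closer to KO1 than to WT1. The log2 fold change was 0.69 ± 0.26 and did not pass (edgeR adjusted p = 0.143). The fitted change was 1.50 after the GC and length correction (edgeR adjusted p = 0.0939), 0.41 without WT1 and 1.04 without WT2. Trim13, which overlaps Dleu2 on the opposite strand, had 44.1 CPM in KO1, 47.3 CPM in KO2, 58.5 CPM in WT1 and 39.2 CPM in WT2. Kcnrg, on the same opposite strand, was at -0.43 ± 0.64. Whether the counting used strand is not given in the sources used here, so reads of Dleu2 and of these genes may not be fully separated. The groups of both overlapped (edgeR adjusted p = 0.783 and 0.647).

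Ftx (ENSMUSG00000086370, mm10 chromosome X, 103560907 to 103623790, minus strand) lies in the X-inactivation centre, where it is known as a positive regulator of Xist, and carries miR-421 and miR-374b. It had 9.79, 10.2, 7.21 and 10.8 CPM in KO1, KO2, WT1 and WT2. The knockout values lay between those of the wild types, and the log2 fold change was 0.15 ± 0.26 (edgeR adjusted p = 0.703), or -0.11 without WT1, 0.48 without WT2 and 0.60 after the GC and length correction. None of the 9 tested genes of the X-inactivation centre list, Ftx included, passed in edgeR or in DESeq2, and 1 had an unadjusted p under 0.05. Xist, from 5 to 55 counts a library, was at 0.713 CPM in KO1, 0.586 CPM in KO2, 1.38 CPM in WT1 and 0.139 CPM in WT2, so that its groups overlapped. The caution on strand applies also to Jpx, on the opposite strand of Ftx (0.28 ± 0.81, edgeR adjusted p = 0.818), and reads may be shared with Gm38020, on its own strand, which had 1.49, 1.98, 0.777 and 0.417 CPM in KO1, KO2, WT1 and WT2 (1.54 ± 0.44, edgeR adjusted p = 0.0902).

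Mir124a-1hg (ENSMUSG00000097545, mm10 chromosome 14, 64587331 to 64593961, plus strand), also known as Rncr3, carries a gene of the neuronal microRNA miR-124. The knockouts stood at 6.0 and 5.52 CPM, WT1 at 3.48 CPM and WT2 at 12.8 CPM. The knockouts again lay between the wild types, which differed by a log2 ratio of 1.86 for WT2 over WT1. The log2 fold change of -0.50 ± 0.65 did not pass (edgeR adjusted p = 0.604), and its sign depended on 1 library: it was 0.72 without WT2 and -1.16 without WT1.

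Mir99ahg (ENSMUSG00000090386, mm10 chromosome 16, 77236317 to 77773427, plus strand), host of miR-99a, let-7c and miR-125b, had no count in any library. A count of 0 allows up to 0.103 CPM before TMM scaling in KO1, the shallowest library, and up to 0.0709 CPM in KO2, the deepest. Rows of its 3 microRNA genes were also without a count. So were those of Mir100, Mirlet7a-2 and Mir125b-1, the corresponding trio at the Mir100hg locus of chromosome 9. No count was therefore seen, at this depth and in either genotype, on any microRNA row of the paired miR-99/100, let-7 and miR-125b loci.

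By level, 1 host was below 1 CPM in every library (Mir99ahg), and C130071C03Rik and A330023F24Rik were below it in both wild types and above it in both knockouts. The other 4 were above 1 CPM throughout. Per kb of exon, Mir22hg had the highest mean level of the hosts in both genotypes, at 6.33 CPM per kb in the knockouts and 2.19 in the wild types, but in WT2 Mir124a-1hg (2.66) exceeded it (2.44). Dleu2 followed in the knockouts with 1.86 and Mir124a-1hg with 1.20. In the wild types Mir124a-1hg was at 1.69, between single-library values of 0.725 and 2.66, a range that takes in Dleu2 (0.913 and 1.41) and Ftx (0.707 and 1.06). The place of Mir124a-1hg was therefore not resolved in the wild types. Within WT1 and within WT2, Mir22hg (1.94 and 2.44) lay above Dleu2 and Dleu2 above Ftx, but the ranges of Dleu2 and Ftx overlapped.

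**Figure D2:**
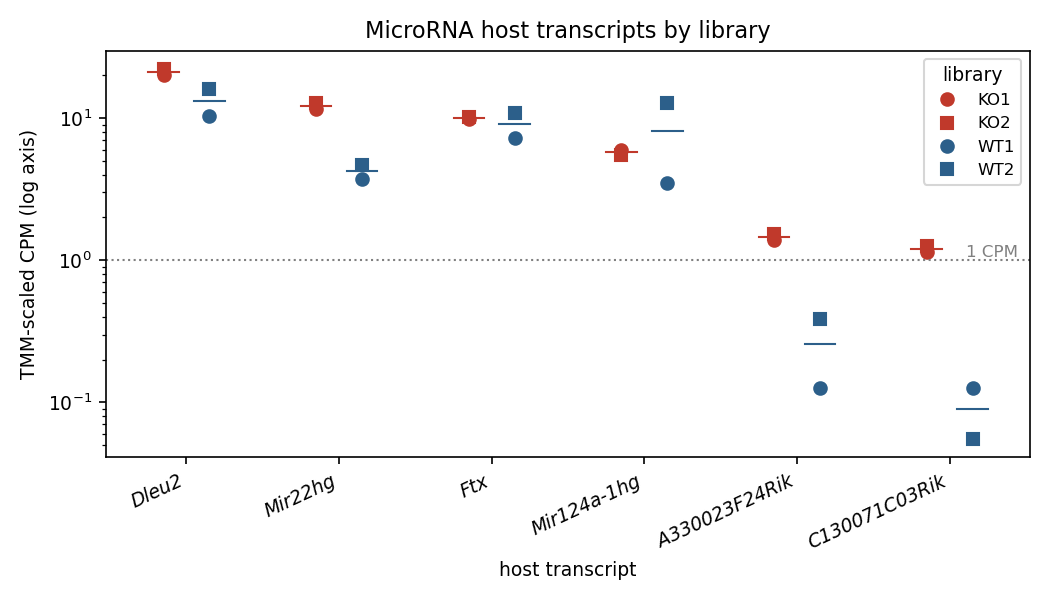
TMM-scaled CPM on a log axis of the 6 hosts that passed the filter in each of the 4 libraries (points) with the mean of each group (lines); Mir99ahg, at 0 throughout, is not drawn. Knockout points lie close together for every host shown, and lie above both wild types for Mir22hg, C130071C03Rik, A330023F24Rik and Dleu2.

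**Figure D3:**
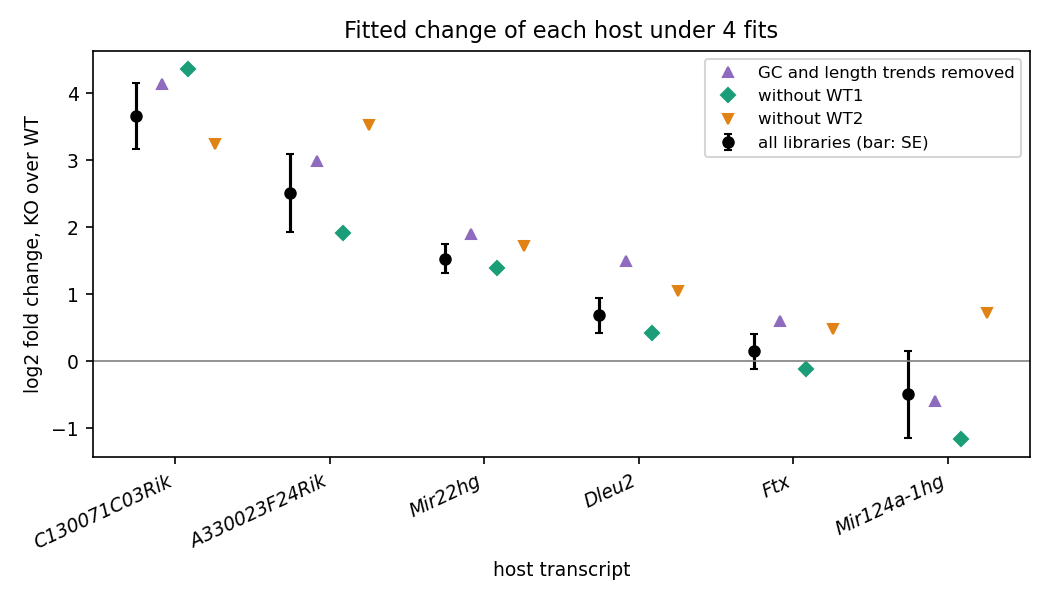
Log2 fold change of knockout over wild type for the 6 hosts that passed the filter, with all libraries (black, bar: SE), after GC and length correction, without WT1 and without WT2. Values for Mir22hg lie between 1.38 and 1.89, while Mir124a-1hg turns from -0.50 to 0.72 without WT2.

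The microRNA genes inside the hosts gave a further readout. Rows of microRNA genes in poly(A) RNA count reads of longer transcripts that cross the hairpin, not the mature microRNA. Of the 18 such genes with a row, 12 had no count in any library and 6 had counts, 99 in the knockouts and 4 in the wild types together. In all 6 both knockout libraries lay above both wild types, in CPM, which held for 28.6% of the 496 annotated microRNA genes with a count. The 6 rows were kept for having a count, and 4 of them had no wild-type count, so their order was largely fixed by that choice. They belong to the Mirlet7bhg, Dleu2 and Ftx loci, and rows of the same locus are not independent. Only Mirlet7b and Mir15a passed the filter, through their knockout counts alone. Neither passed the test (edgeR adjusted p = 0.0540 and 0.0557, 2 at an unadjusted p under 0.05, and 0 called by DESeq2, which gave neither an adjusted p). Both were called by edgeR without the filter on low counts (adjusted p = 0.0300 and 0.0363) and with the replicate block (0.0382 and 0.0431).

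Mirlet7b had 12 counts in KO1, 14 in KO2 and 0 in both wild types, and Mirlet7c-2, which lies beside it, had 7, 10, 0 and 0. Reads across both let-7 hairpins of this locus were thus seen in the knockout libraries alone. Against the 3 counts that 0 allows over the wild-type group, the observed knockout level was 8.75-fold higher for Mirlet7b and 5.72-fold higher for Mirlet7c-2. These ratios allow for counting error in the wild types only, and not for that in the knockout counts. The hairpins share a locus and are not independent. Ppara, the nearest tested gene on the side of the hairpins, at 27459 bases, had 0.486 CPM in KO1, 0.654 CPM in KO2, 0.902 CPM in WT1 and 0.139 CPM in WT2, so that its groups overlapped.

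Mir15a had 10 and 12 counts in the knockouts and Mir16-1 had 1 and 3, with none of either in the wild types. Against the same wild-type limit of 3 counts the ratio for Mir15a was 7.40, again without counting error in the knockouts. Dleu2, whose intron holds Mir15a, gave 413 and 574 counts in WT1 and WT2 without a count on either hairpin. Per 1000 counts of Dleu2, the pair of hairpin rows had 17.7 counts in KO1, 15.3 in KO2 and 0 in both wild types. At Ftx the hairpin rows Mir421 and Mir374b had 43.0 and 37.5 counts per 1000 host counts in the knockout libraries, 10.4 in WT1 and 2.56 in WT2. For both hosts this ratio of hairpin rows to the host's own row was thus higher in each knockout library than in either wild type. The ratio was taken only for these hosts, whose hairpin rows had counts, most of them in the knockouts. Its order was therefore largely fixed by that choice. It was not set beside the same ratio of other hosts, and the difference was not tested. For Mir421, with 6, 9, 1 and 1 counts, the pooled ratio was 7.57 with an exact 95% counting interval from 1.76 to 68.2, and Mir374b, with 7, 8, 2 and 0, had the same totals.

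**Figure D4:**
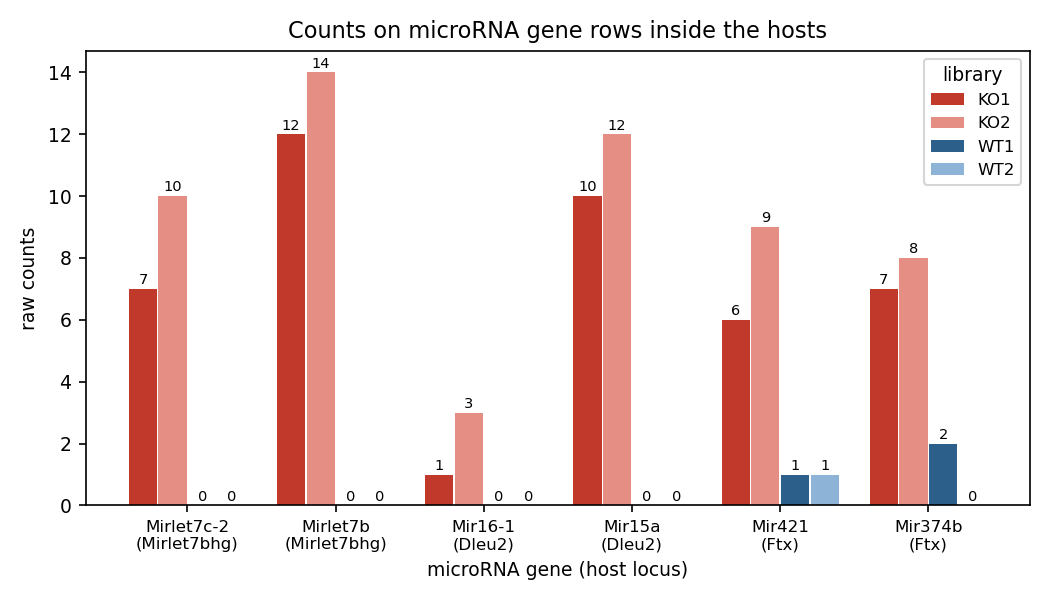
Raw counts on the 6 microRNA gene rows with any count inside the hosts, by library (KO1 and KO2 red, WT1 and WT2 blue). Knockout libraries have 1 to 14 counts on each row and wild types 0 to 2.

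The 12 microRNA rows without a count fall into sets. Mir22, Mir9-2, Mir124a-1, Mir3078, Mir29b-2 and Mir29c overlap an exon of a host that was detected, and the other 6 belong to the Mir99ahg and Mir100hg loci. Across the whole table, 138 of 151 microRNA genes wholly inside an exon of a same-strand gene at a mean of 1 CPM or more had no count (91.4%), against 284 of 554 in introns (51.3%). C130071C03Rik and A330023F24Rik, the hosts of Mir9-2, Mir29b-2 and Mir29c, had means under 1 CPM over all libraries. These 3 microRNA genes therefore lie outside that comparison. How reads over an exonic hairpin were assigned depends on options of the counting that are not given in the sources used here, so a 0 on these rows does not show that the hairpin was absent from the transcript.

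Hosts outside the 10 give the comparison for these values. Among 39 tested non-coding genes that hold an annotated microRNA gene on the same strand, other than those above, 5 rose (12.8%) and 0 fell, with 16 higher and 2 lower at an unadjusted p under 0.05, 11 higher and 3 lower in DESeq2 and a median log2 fold change of 0.58. The 5, named after their values were seen, were Mirg, 4631405K08Rik (host of Mir205, 4.49 ± 0.70), 4833445I07Rik (Mir191 and Mir425, 2.56 ± 0.32), 6720427I07Rik (Mirlet7a-1, Mirlet7d and Mirlet7f-1, 1.43 ± 0.19) and the pseudogene Gm12715 (1.13 ± 0.15, or 0.50 after the GC and length correction). Of 702 tested protein-coding genes with a microRNA inside, 42 rose and 13 fell, with a median of 0.12. Whether the 10 listed hosts differ from either group was not tested.

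Listed genes of the same pathway gave the following counts. Of the 9 listed cluster hosts, 6 of which hold a microRNA gene in the annotation, 7 were tested, and Kis2 (5.46 ± 0.33), known as the transcript of the miR-106a cluster, and Mirg (2.65 ± 0.13), that of the Dlk1-Dio3 cluster, rose while 0 fell. Of 33 tested protein-coding hosts 3 rose and 0 fell. These were the channel gene Trpm1 (1.77 ± 0.22), Egfl7, an endothelial gene that carries miR-126 (1.56 ± 0.16), and, named after its value was seen, Srebf1, a transcription factor gene of lipid synthesis (1.49 ± 0.15). After the GC and length correction Egfl7 was at 0.75 and Srebf1 at 0.51, while Trpm1 was at 1.78. At an unadjusted p under 0.05, 4 cluster hosts were higher and 1 lower, and 12 protein-coding hosts were higher and 6 lower. DESeq2 called 4 and 1 of the former and 9 and 4 of the latter. Among 23 tested genes of microRNA biogenesis, Dgcr8 was called higher (1.10 ± 0.13) and Drosha lower (-1.19 ± 0.11), and edgeR called none of the other 21. At an unadjusted p under 0.05, 2 of the 23 were higher and 8 lower, and DESeq2 called 1 higher and 5 lower.

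Around the 7 hosts with a row, 14 neighbouring genes were tested and 0 passed, with 3 higher and 5 lower at an unadjusted p under 0.05 and 1 higher and 2 lower in DESeq2. Their median log2 fold change was -0.51. Of 6 tested genes that overlap a host 0 passed, with 1 at an unadjusted p under 0.05 and 0 in DESeq2. The gene that DESeq2 called higher was Wdr81, beside Mir22hg.

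The genes with patterns most like those of the called hosts were sought by the distance between log2 CPM centred over the 4 libraries, among genes of similar level. For Mir22hg these were Oaf (distance 0.0990), Gm6960 (0.122) and Mvb12b (0.143) of 3056 candidates. For C130071C03Rik they were Gm17087 (0.221), the colipase gene Clps (0.227) and Mir92-2 (0.228), a microRNA gene of the miR-106a cluster, of 2873 candidates. With 4 libraries such likeness is a description only.

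Markers of other cell types also differed between the genotypes. Of 9 tested endoderm markers 3 fell: the endocytic receptor gene Cubn (-4.10 ± 0.52), Lama1 (-2.09 ± 0.17) and, named after its value was seen, Col4a1 (-1.71 ± 0.25), which encode basement membrane proteins. At an unadjusted p under 0.05, 8 of the 9 were lower, and DESeq2 called 8 lower. Col4a1 was at -2.64 after the GC and length correction. The endoderm list summed to 70.5 CPM in KO1, 69.4 CPM in KO2, 247 CPM in WT1 and 430 CPM in WT2. Of 5 tested trophoblast markers Tfap2c rose (1.08 ± 0.13), and the list summed to 123 and 121 CPM in KO1 and KO2 and 71.9 and 61.3 CPM in WT1 and WT2. Tfap2c alone held 84.7 and 83.4 CPM of that sum in KO1 and KO2 and 37.8 and 41.4 CPM in WT1 and WT2. Fibroblast and feeder markers (7 tested) and mesoderm markers (5 tested) had no call, with 4 and 2 genes higher at an unadjusted p under 0.05 and 2 and 1 in DESeq2. Dcn, Lum and Postn, of the fibroblast list, had no count in the wild types. Dcn had 51 counts in KO1 and 24 in KO2 (1.65 and 0.541 CPM) and entered the test through these counts alone. It did not pass in edgeR (adjusted p = 0.0639) but was called by DESeq2 (adjusted p = 0.000244). The fibroblast list summed to 1621 and 1602 CPM in KO1 and KO2 and 1083 and 1772 CPM in WT1 and WT2. The mesoderm list summed to 11.8 and 11.4 CPM against 7.94 and 9.83 CPM. The part of these cells in the host values was not tested.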

How the data were processed

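The members and gene lists were chosen with earlier results of these data known. The deposited values are raw counts per Ensembl gene for 4 libraries. Reads were aligned with STAR 2.4.2a and counted with featureCounts 1.4.5-p1 on mm10, per the submitters' processing notes; the protocol is reverse-stranded per the labels, but the annotation release and the options for strand and overlaps are not given in the sources used here. Symbols came from a gene name table (42462 identifiers, 97.3%), and coordinates, exons and GC content from GENCODE M21 on the same build.

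Counts were fitted with edgeR 4.0.16 in R 4.3.3 (TMM, filter at a minimum count of 10 and total of 15, group alone, quasi-likelihood test, Benjamini-Hochberg over 17022 genes, threshold 0.05). SE is the log2 fold change divided by the square root of F. TMM factors ran from 0.908 to 1.05. One count was worth 0.0236 to 0.0342 CPM before scaling, which limits genes below 1 CPM. Log2 ratios between 2 libraries used a prior count of 2, and likeness a pseudocount of 0.1 CPM among genes within 1 log2 unit. GC and length trends were lowess curves (span 0.3) of each library against the mean library. Intervals are exact binomial. The edgeR fit was checked on simulated counts with known changes, drawn with the same spread in both groups. That check does not cover the unequal spread of the knockout and wild-type pairs. DESeq2 1.42.0 was an alternative, and tables and plots used Python 3.11.15.

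Named genes were all members, Drosha and Dgcr8, microRNA genes inside members, the nearest tested gene on each side, up to 2 higher and 2 lower called genes of each list or else the one with the smallest p, and the 3 most alike genes of each called member. Single values of list genes without a call were named after they were seen. Some genes that this rule names are not reported here.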

Additional observations from a re-analysis of the deposited data

How the results depend on the processing

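Over all genes 927 were called, against 2663 without the expression filter, 1929 with the replicate block and 3757 in DESeq2. There were 0 with upper-quartile scaling, with library totals alone, with GC and length trends removed, with those trends removed and the replicate block, and with the knockout libraries summed as 1 sample. In those edgeR fits 6267, 6116, 4300, 3227 and 1888 genes had an unadjusted p under 0.05. Leaving out 1 library gave 0 to 13658 calls; the highest counts came without WT1 (13658) or WT2 (12089), where only the knockout pair has a spread and the lone wild type is assumed to vary like it, and 0 and 22 genes were called without KO1 and KO2. Of the hosts, 2 were called, and 3 without the filter, with the replicate block or in DESeq2 (A330023F24Rik in addition). The 5 settings without a call gave 0 hosts, with 4, 4, 4, 4 and 3 of them at an unadjusted p under 0.05. Leaving out 1 library gave 0 to 6 called hosts. Over the 12 alternatives Mir22hg ranged from 1.38 to 1.89, C130071C03Rik from 3.24 to 4.36, A330023F24Rik from 1.91 to 3.53 and Dleu2 from 0.41 to 1.52, all above 0. Ftx turned to -0.11 without WT1, and Mir124a-1hg was at 0.72 without WT2 and -1.16 without WT1. Among neighbouring and overlapping genes Kif13b was at 0.19 without WT1 and -0.49 without WT2, Trim13 at 0.22 and -0.34, and Dleu7 at -1.73 and 0.44. With GC and length trends removed, Cr1l (0.04), Cetn3 (0.09), Spryd7 (0.09), Usp25 (0.10) and Trim13 (0.32) turned above 0 and Tlcd2 below it (-0.66), none of them called. With library totals alone the median log2 fold change of all genes was 0.13. The block is not a true pairing: the labels tie no knockout to a wild type, and the deviations of KO1 and WT1 correlated at only 0.0461. Depth limits C130071C03Rik and A330023F24Rik in the wild types, which had 2 to 14 counts of either. The cause of each lost or gained call was not tested.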
